A study of Mus musculus with 6 samples.

Results

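Transcripts of 6 galectins (Lgals1, Lgals2, Lgals3, Lgals4, Lgals8 and Lgals9) and of the galectin-binding glycoprotein Lgals3bp were followed in mouse stomach. These 7 genes were taken by symbol from a table of 23550 genes. All 7 passed the filter on low values, which kept 11738 genes with at least 1 FPKM (fragments normalised to gene length and to the library's total) in at least 3 of 6 libraries. The set was selected on its FPKM values, with the difference between Riclin and saline in these libraries in view, so every difference below is a description and nothing is supported by it. Total RNA of stomach was sequenced from mice given normal saline by gavage (replicates 1, 2 and 4) and from mice given Riclin by gavage at 20 mg/kg (replicates 2, 3 and 4), with 3 libraries in each group. Dosing ran for 14 days in an experiment of 20 mice, and the label of the saline samples carries the same figure of 20 mg/kg. Riclin is a soluble dietary fibre, and the comparison addresses its effect on the defence barrier of the gastric mucosa. The strain and age of the mice, and whether those behind the libraries received the ethanol used in another experiment of the study, are not stated in the labels. Nothing in the labels ties each library to its own animal, so the spread between libraries may be technical.

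Galectins are lectins that bind beta-galactosides on glycoproteins and glycolipids. They lack a signal peptide, leave the cell by a route outside the classical secretory pathway, and crosslink mucins, receptors and matrix at the cell surface, while inside the cell they mark vesicles whose lumen has been exposed. Lgals1 and Lgals2 encode galectins with 1 carbohydrate-binding domain that pair into dimers, Lgals3 encodes the chimeric galectin with a long flexible N-terminal tail, and Lgals4, Lgals8 and Lgals9 encode tandem-repeat galectins with a pair of linked domains. Lgals3bp encodes a secreted, heavily glycosylated scavenger receptor protein that binds galectins, and both it and Lgals9 are known as interferon-inducible genes.

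The FPKM values imply library totals between 30884067 and 40050267 reads, a range of 1.3-fold. Between 1278 and 39413 recovered reads lay behind each of the 42 member values, so that counting error was at most 2.80% (1 SD, counting error only). That was small beside the spread over all 6 libraries, with coefficients of variation of 14.8 to 42.8%. Gastric markers were present in every library: the summed level of 8 surface mucous (pit) genes lay between 58900 and 106800 FPKM and that of 7 parietal genes between 3208 and 5757 FPKM. Some libraries stood apart in their makeup. Riclin replicate 3 had a summed level of 12 pancreatic acinar genes of 11.1 FPKM, against 24900 to 101500 FPKM in the other libraries. Riclin replicate 4 had the lowest sum of 4 antral and endocrine genes (228 FPKM), being lowest in Gast, Pdx1 and Nkx6-3 but not in Sst. That sum was 619.5 and 650.8 FPKM in Riclin replicates 2 and 3 and 833 to 1274 FPKM in saline. All Riclin libraries thus lay below all saline libraries in this sum, although Sst had the higher mean in Riclin. The part of this difference in the member levels was not tested. Saline replicate 1 had the lowest sum of 10 squamous genes of the forestomach (80.3 FPKM against 246 to 446 FPKM). Saline replicate 4 had the highest sum of 5 mucous neck genes (13440 FPKM against 2275 to 6150 FPKM). It was also highest in the sum of 7 intestinal absorptive genes (364 FPKM against 223 to 305 FPKM). In whole stomach, fewer cells of a type and less RNA per cell cannot be told apart.

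By level per gene length, Lgals2 was the most abundant member and Lgals8 the least. The means over the 6 libraries were 984 FPKM for Lgals2, 446 FPKM for Lgals9, 246 FPKM for Lgals3bp, 204 FPKM for Lgals4, 152 FPKM for Lgals1, 74.9 FPKM for Lgals3 and 14.1 FPKM for Lgals8. Lgals2 exceeded Lgals9, Lgals9 exceeded Lgals3bp, Lgals1 exceeded Lgals3 and Lgals3 exceeded Lgals8 in 6 of 6 libraries. The middle of the order was not fixed. Lgals3bp lay above Lgals4 in 3 of 6 libraries, namely in 3 of 3 Riclin libraries and in 0 of 3 saline libraries, and Lgals4 lay above Lgals1 in 4 of 6.

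**Figure D1:**
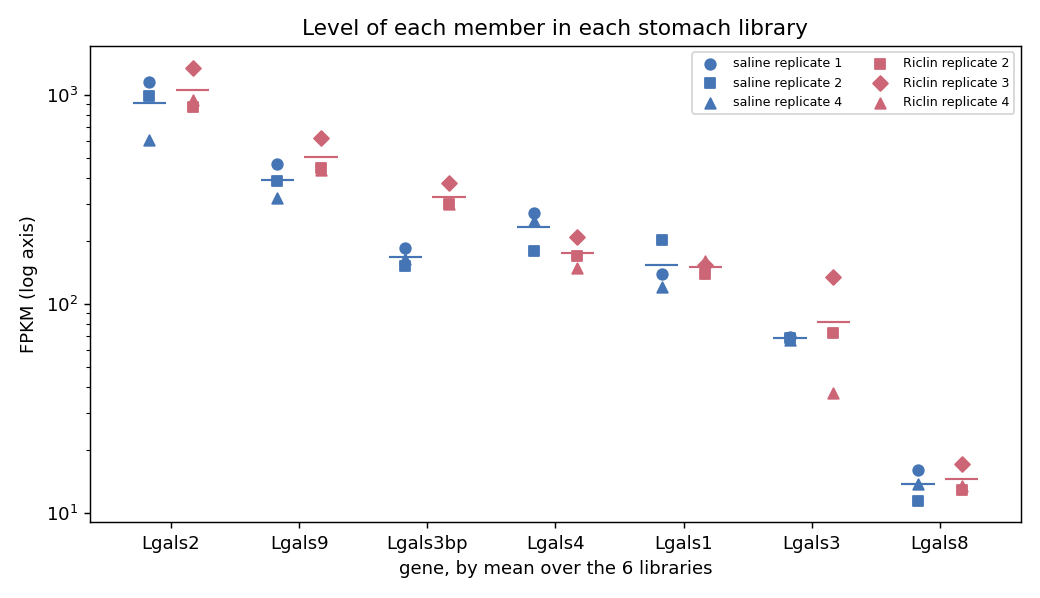
Level of the 7 genes in the 6 stomach libraries, in FPKM on a log axis, with saline in blue, Riclin in red, 1 marker shape per replicate number (a diamond for Riclin replicate 3) and a bar at each group mean. For Lgals3bp all 3 Riclin libraries lie above all 3 saline libraries, and for the other 6 genes the groups overlap.

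Between the groups, Lgals3bp was the member with the widest separation. Its mean was 1.95-fold higher in Riclin, and its groups did not overlap, while in all 6 galectins they did. The log2 fold change was 0.35 for Lgals9, 0.23 for Lgals2 and -0.40 for Lgals4, and for Lgals1, Lgals3 and Lgals8 it lay between -0.001 and 0.07. In mean FPKM Lgals3 was 1.19-fold and Lgals2 1.16-fold higher in Riclin, with Riclin replicate 3 the highest library for both. By limma with Benjamini-Hochberg adjustment over all genes tested, 0 of 7 members passed the threshold of 0.05, beside 0% of all genes (0 of 11738). An unadjusted p under 0.05 was found for 1 of 7 members, Lgals3bp, beside 5.9% of all genes. Groups were apart in 1 of 7 members, beside 11.2% of all genes, and groups apart with Riclin higher made up 8.14% of all genes. A voom fit to the recovered reads called 0 members and 0 genes. The median log2 fold change was 0.07 over the 7 members and 0.04 over all genes tested.

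**Figure D2:**
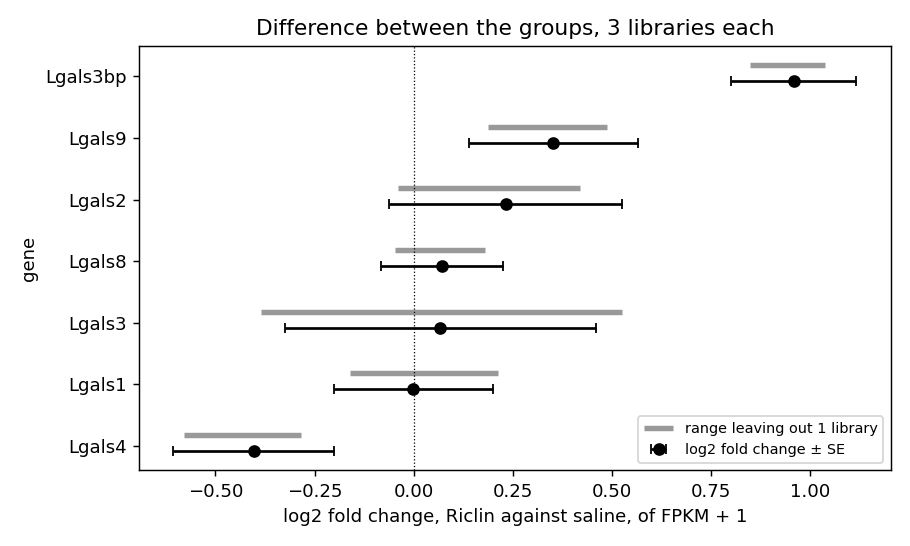
Difference between Riclin and saline for each member as log2 fold change of FPKM + 1 (points, with SE as error bars, n = 3 in each group) and the range of that value when each library in turn was left out (grey bars). Lgals3bp lies farthest from 0 at 0.96, Lgals4 is the lowest at -0.40, and the grey bars of Lgals1, Lgals2, Lgals3 and Lgals8 cross 0.

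Lgals3bp spans positions 118392751 to 118402092 of chromosome 11 on GRCm38 (the assembly named mm10), minus strand, with 6 exons in its principal transcript and a predicted protein of 577 residues. It measured 185, 151 and 164 FPKM in saline replicates 1, 2 and 4 and 298, 378 and 300.3 FPKM in Riclin replicates 2, 3 and 4. Every Riclin library lay above every saline library, with Riclin replicate 3 the highest. The group levels were 167 ± 17.1 FPKM in saline and 326 ± 45.3 FPKM in Riclin (SD, n = 3 each), a log2 fold change of 0.96 (SE 0.158). That was the 73rd highest of the 11738 log2 fold changes, at an abundance above that of 4 of the 6 galectins. Without Riclin replicate 3 the log2 fold change was 0.85, and over the 6 libraries left out in turn it lay between 0.85 and 1.04.

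Among all genes tested, those whose log2 profile over the 6 libraries lay closest to that of Lgals3bp were Sp100, a nuclear body protein, Irf9, the DNA-binding partner of the STAT proteins in the interferon response, and B4galnt3, an enzyme that caps glycans with N-acetylgalactosamine. The root mean square differences of the centred profiles were 0.082, 0.105 and 0.112 log2 units, beside a standard deviation of 0.499 log2 units for Lgals3bp itself. Sp100 measured 8.23, 7.02 and 8.10 FPKM in saline and 14.0, 19.5 and 13.1 FPKM in Riclin. Irf9 measured 13.5, 9.77 and 10.5 FPKM in saline and 17.4, 26.9 and 20.7 FPKM in Riclin.

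Lgals9 and Lgals3bp lie on the same chromosome, and their promoters are shown because both genes are known to answer to interferon. RefSeq start regions of GRCm38.p6 (250 bases before to 50 after the start, printed 5′ to 3′ along the gene) were matched by symbol for 6 of 7 members, the missing entry being Lgals1. They were searched on both strands for the core of the interferon-stimulated response element (GAAA, any 2 bases, GAAA) and for the gamma-activated sequence (TTC, any 3 bases, GAA). Capitals mark matches, and no match of one motif overlapped the other.
Lgals9 promoter, chr11:78984875-78985174, minus strand: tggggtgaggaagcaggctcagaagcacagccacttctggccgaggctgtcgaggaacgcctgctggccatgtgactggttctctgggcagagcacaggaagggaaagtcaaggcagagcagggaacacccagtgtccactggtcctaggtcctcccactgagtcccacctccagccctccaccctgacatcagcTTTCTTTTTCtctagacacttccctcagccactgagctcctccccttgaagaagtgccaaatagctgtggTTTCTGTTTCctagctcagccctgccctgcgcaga
Lgals3bp promoter, chr11:118401910-118402209, minus strand: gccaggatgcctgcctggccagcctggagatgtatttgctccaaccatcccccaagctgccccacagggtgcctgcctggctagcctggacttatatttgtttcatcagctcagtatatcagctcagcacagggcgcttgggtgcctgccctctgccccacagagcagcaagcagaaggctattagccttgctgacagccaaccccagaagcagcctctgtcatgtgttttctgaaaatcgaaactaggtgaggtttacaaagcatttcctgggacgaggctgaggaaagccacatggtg
The Lgals9 region held 2 matches to the response element core, TTTCTTTTTC with its first base 55 bases before the start and TTTCTGTTTC with its first base at position 16 of the transcript, both on the strand opposite to the gene. The regions of Lgals2, Lgals3, Lgals3bp, Lgals4 and Lgals8 held 0 matches to either motif. Of all 32851 promoters of this length 3.44% held the response element core and 8.3% the gamma-activated sequence. Counted by gene, 3.99% of 27025 genes and 12 of the 23 interferon-stimulated genes with an entry held the core. A match describes the letters of this window only, and its absence says nothing of regulation from elsewhere. Only exact matches were counted, so elements that differ from these letters were missed. The Lgals3bp region holds aaaatcgaaa, which differs from the response element core at its first base only. Near matches were not searched for in the other regions.

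Lgals9, whose product is a tandem-repeat galectin that binds the T cell receptor Tim-3, spans 78962974 to 78984946 of chromosome 11, minus strand, with 11 exons and 353 residues. It measured 467, 386 and 322 FPKM in saline replicates 1, 2 and 4 and 445, 620.5 and 437 FPKM in Riclin replicates 2, 3 and 4. Saline replicate 1 lay above Riclin replicates 2 and 4, so the groups overlapped. The levels were 391 ± 72.7 FPKM in saline and 501 ± 104 FPKM in Riclin (SD, n = 3 each), 1.28-fold higher, with a log2 fold change of 0.35 (SE 0.214) that was 0.19 without Riclin replicate 3. Havcr2, which encodes Tim-3, stayed under the filter at 0.202 to 0.560 FPKM. The profiles closest to Lgals9 were those of Oxct1, which breaks down ketone bodies, Mitd1 and Ushbp1, at 0.067, 0.077 and 0.078 log2 units.

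Lgals4, a galectin of gut epithelium that organises lipid rafts and apical transport, spans 28833854 to 28841708 of chromosome 7, plus strand, with 10 exons and 326 residues. It measured 271, 179 and 249 FPKM in saline and 169, 208 and 148 FPKM in Riclin. Riclin replicate 3 lay above saline replicate 2, and in every other pairing of libraries the saline value was the higher. The levels were 233 ± 47.7 and 175 ± 30.2 FPKM (SD, n = 3 each), 1.33-fold lower in Riclin, with a log2 fold change of -0.40 (SE 0.203), and the direction held under all 16 alternatives.

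Among the profiles closest to Lgals4, those of the monooxygenase Fmo5 and the triglyceride-forming enzyme Dgat1 were 1.44-fold and 1.36-fold lower in mean FPKM in Riclin and each lay 0.070 log2 units away. Of 6 tested intestinal absorptive markers of 7 listed, 4 were lower in Riclin and 2 higher, the peptidase Anpep (1.57-fold, groups apart) and the apolipoprotein Apoa4 (1.24-fold), and the summed level of the list was 305, 227 and 364 FPKM in saline replicates 1, 2 and 4 and 230.5, 297 and 223 FPKM in Riclin replicates 2, 3 and 4. Lgals4 and this sum had the same library at their lowest, Riclin replicate 4, and the same pair of libraries at the top. Sis, which marks small intestine, was listed at 0 in 5 of the 6 libraries and at 0.892 FPKM in saline replicate 4. Their part in the level of Lgals4 was not tested.

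Lgals8, which marks damaged vesicles for autophagy, spans 12439415 to 12464944 of chromosome 13, minus strand, with 11 exons and 316 residues. It measured 16.0, 11.4 and 13.8 FPKM in saline and 12.8, 17.1 and 13.4 FPKM in Riclin. It varied the least among the members, with a coefficient of variation of 14.8% over the 6 libraries. Its log2 fold change of 0.07 (SE 0.154) turned to -0.045 without saline replicate 2 and to -0.048 without Riclin replicate 3.

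Lgals3, the chimeric galectin of epithelium and macrophages that forms oligomers on its ligands, spans 47367751 to 47386160 of chromosome 14, plus strand, with 6 exons and 264 residues. It measured 69.4, 68.6 and 66.9 FPKM in saline and 72.3, 135 and 37.4 FPKM in Riclin. The saline libraries lay close together, while Riclin replicate 3 was the highest of all 6 and Riclin replicate 4 the lowest. The saline spread was of the order of counting error, which was 2.24% for Lgals3 at its fewest reads (Riclin replicate 4). The levels were 68.3 ± 1.25 and 81.5 ± 49.3 FPKM (SD, n = 3 each), and the log2 fold change of 0.07 (SE 0.392) was -0.38 without Riclin replicate 3 and 0.53 without Riclin replicate 4. Over the 6 libraries its log2 standard deviation lay at the 96.4th percentile of all genes tested.

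Of 8 tested macrophage markers 5 were higher and 3 lower in Riclin, none was at 0, and the summed level was 136, 174 and 222 FPKM in Riclin replicates 2, 3 and 4, so that it was highest where Lgals3 was lowest. Riclin replicate 4 was also the lowest library in the summed pit list, at 58900 FPKM, and in the sum of 6 adipocyte genes, at 82.4 FPKM against 134 to 208 FPKM in the others. Riclin replicate 3, the highest in Lgals3, lay within the saline range in both sums, at 84370 and 197 FPKM. Both sums were highest in saline replicate 1. The part of these lists in the level of Lgals3 was not tested. The closest profiles belonged to Adig, an adipocyte gene, Hamp2, a relative of hepcidin, and Tent5a, at 0.166, 0.166 and 0.209 log2 units, and Hamp2 measured 131 FPKM in Riclin replicate 3 and 36.0 FPKM in Riclin replicate 4.

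The prototype galectins lie 71195 bases apart on chromosome 15. Lgals2, a galectin of gastrointestinal epithelium, spans 78850860 to 78855529 on the minus strand with 4 exons and 130 residues. It measured 1143, 990 and 606 FPKM in saline and 874, 1346 and 944 FPKM in Riclin. Saline replicate 4 was the lowest and Riclin replicate 3 the highest library, and the groups overlapped. The levels were 913 ± 277 and 1055 ± 255 FPKM (SD, n = 3 each). The log2 fold change of 0.23 (SE 0.294) was -0.039 without saline replicate 4. Its profile was closer to that of Lgals9 (0.158 log2 units) than to that of any other member, and the nearest of all genes were Pard6a, a polarity protein, the fatty acid carrier Fabp3 and Itfg2, at 0.102, 0.109 and 0.109 log2 units.

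Lgals1, a galectin of stroma and muscle, spans 78926725 to 78930465 of chromosome 15 on the plus strand with 4 exons and 135 residues. It measured 139, 202 and 120.0 FPKM in saline and 138, 153 and 160 FPKM in Riclin. The highest and the lowest library were both saline, and the Riclin values lay between them. The levels were 154 ± 42.8 and 150.2 ± 11.0 FPKM (SD, n = 3 each). The log2 fold change of -0.001 (SE 0.200) ranged from -0.16 to 0.21 when 1 library was left out, being positive when replicate 2 of saline (0.21) or of Riclin (0.06) was dropped. The summed level of 7 smooth muscle genes was also highest in saline replicate 2, at 1930 FPKM against 1358 to 1578 FPKM in the others, with 0 of 7 genes higher in Riclin and none at 0, and its part in the level of Lgals1 was not tested. GENCODE M21 annotates 2 processed pseudogenes of Lgals1, on chromosomes 15 and 17. How reads that match both a pseudogene and the gene were counted is not stated in the sources used here.

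**Figure D3:**
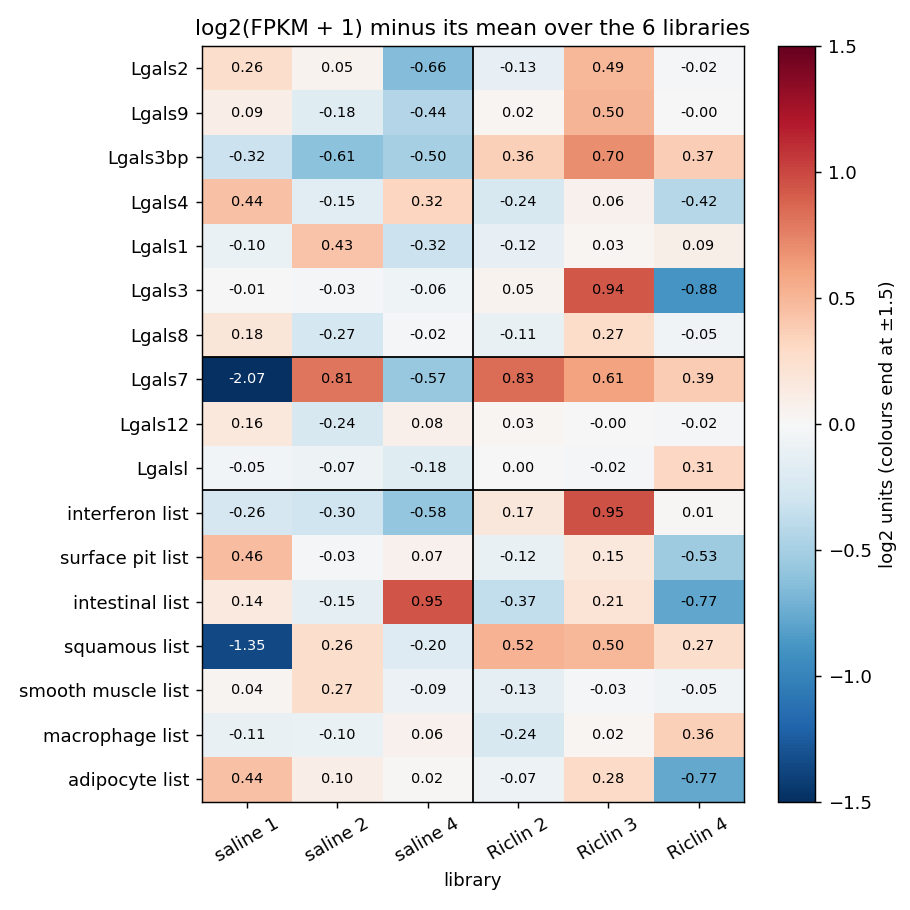
log2(FPKM + 1) of each member, of 3 other galectin genes and of the mean of 7 marker lists, minus its mean over the 6 libraries (rows), in each library (columns), with red above and blue below the mean. Lgals3bp is at 0.36, 0.70 and 0.37 in Riclin replicates 2, 3 and 4 and below 0 in all 3 saline libraries, while Lgals3 runs from 0.94 in Riclin replicate 3 to -0.88 in Riclin replicate 4.

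As a pool, the 6 galectins summed to 2105, 1836 and 1377 FPKM in saline replicates 1, 2 and 4 and to 1711, 2479 and 1740 FPKM in Riclin replicates 2, 3 and 4, with overlap between the groups. Lgals2 made up 44.0 to 54.3% of that sum in the 6 libraries, Lgals4 8.38 to 18.1% and Lgals1 6.16 to 11.0%. Lgals3 made up 2.15 to 5.44% and Lgals8 0.623 to 0.999%. The share of Lgals9 was 22.2, 21.0 and 23.4% in saline and 26.0, 25.0 and 25.1% in Riclin. All 3 Riclin shares of Lgals9 lay above all 3 saline shares, a pattern singled out after its values were seen, whereas its FPKM overlapped. Shares of a sum depend on one another, and the lower Lgals4 in Riclin enters this one.

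**Figure D4:**
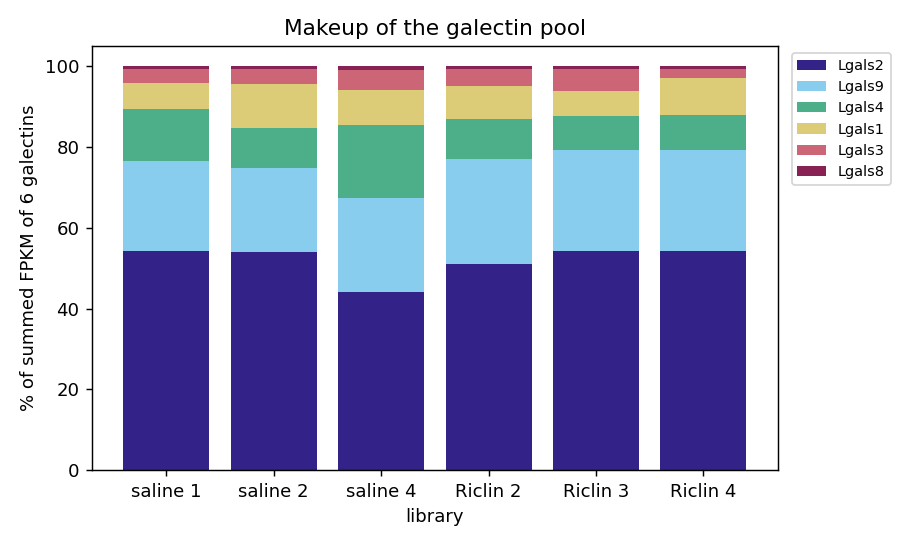
Share of each galectin in the summed FPKM of the 6 galectins, in percent, with 1 stacked bar per library. Lgals2 forms the lowest segment, at 44.0% in saline replicate 4 and at 51.1 to 54.3% in the other libraries.

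Of 5 further galectin-related symbols, 4 were in the table and 3 were tested. Lgals7, a galectin of stratified epithelium that lies 22144 bases from Lgals4, measured 22.8, 174 and 66.6 FPKM in saline and 178, 152 and 130 FPKM in Riclin. Saline replicate 1 was the lowest by far, and the log2 fold change of 1.22 (SE 0.616) was 0.49 without it and 1.93 without saline replicate 2. The summed squamous markers followed the same low library, at 80.3, 360 and 246 FPKM in saline and 416, 446 and 316 FPKM in Riclin. Of 10 listed 9 of 9 tested genes were higher, beside 61.3% of all genes tested, and none was at 0. Without saline replicate 1, 8 of 9 were higher, beside 69.2% of all genes, and the median log2 fold change of 0.77 was 0.46. Krt6a was lowest in saline replicate 2 and Krt17 in saline replicate 4. The part of the squamous markers in the level of Lgals7 was not tested. Lgals12, a galectin of adipocytes, stayed within 8.57 to 11.6 FPKM. Lgalsl, a galectin-like gene, measured 9.78, 9.57 and 8.84 FPKM in saline and 10.2, 9.99 and 12.8 FPKM in Riclin. These groups did not overlap, as in the 8.14% of all genes tested with groups apart and Riclin higher. With median-of-ratios or upper-quartile scaling, or with pancreatic genes removed, the groups of Lgalsl did overlap. Grifin, a lens galectin, had 1 read in 1 library.

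Receptors and other binding partners of galectins showed no common direction. Of 16 tested genes of 17 listed, 9 had a higher and 7 a lower mean log2 level in Riclin, where 61.3% of all genes tested were higher. Of these genes 0 passed the adjusted threshold, and the median log2 fold change was 0.01. Groups were apart in 1 gene with Riclin higher and in 1 with Riclin lower, beside 8.14% and 3.02% of all genes. Ceacam1, an adhesion receptor, was 1.65-fold lower in mean FPKM, at 8.59, 6.68 and 10.3 FPKM in saline and 4.52, 6.32 and 4.64 FPKM in Riclin. Its groups did not overlap. Lamp2, a lysosomal membrane glycoprotein rich in galectin ligands, was 1.13-fold higher, at 26.8 ± 1.37 and 30.3 ± 0.825 FPKM (SD, n = 3 each), also without overlap. With median-of-ratios scaling the groups of Lamp2 did overlap. The membrane mucin Muc1 was 1.23-fold higher and the hyaluronan receptor Cd44 1.33-fold lower in mean FPKM, both with overlap. The log2 fold change of Cd44 was -0.08 without saline replicate 4, and that of Muc1, 0.32, was 0.49 without saline replicate 1.

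Enzymes that branch N-glycans or add the galactose and N-acetyllactosamine that galectins bind were also mixed. Of 17 genes 10 were higher, beside 61.3% of all genes tested, and 7 lower, with 0 past the adjusted threshold and a median of 0.03. Groups were apart in 1 gene with Riclin higher and in 1 with Riclin lower, beside 8.14% and 3.02% of all genes. St6gal1, a sialyltransferase whose alpha2,6-linked sialic acid blocks binding by Lgals1 and several other galectins, measured 3.02, 2.15 and 2.97 FPKM in saline and 2.06, 1.84 and 1.64 FPKM in Riclin, 1.47-fold lower without overlap. Gcnt2, which branches poly-N-acetyllactosamine, measured 2.03 ± 0.045 and 2.63 ± 0.246 FPKM (SD, n = 3 each), 1.30-fold higher without overlap. The branching enzymes Mgat2 and Mgat4a had log2 fold changes of 0.18 (0.11 without Riclin replicate 3) and -0.19 (-0.29 without saline replicate 2). B cell and plasma cell markers, which include cells known to express St6gal1, were lower in Riclin in 4 of 4 tested of 6 listed, at summed levels of 24.8 to 37.1 FPKM in saline and 9.56 to 12.1 FPKM in Riclin, none at 0, and their part in its level was not tested.

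Genes that act with galectins on damaged vesicles lay near the background, with 15 of 22 higher beside 61.3% of all genes tested, 7 lower, 0 past the adjusted threshold and a median log2 fold change of 0.10 (0.05 without Riclin replicate 3). The autophagy kinase Ulk1 measured 8.50, 7.32 and 6.35 FPKM in saline and 9.14, 9.40 and 9.10 FPKM in Riclin, 1.25-fold higher without overlap. Gabarapl1, a ubiquitin-like protein of autophagosomes, was 1.19-fold higher, Atg16l1, which directs its lipidation, 1.19-fold, and Tsg101, of the membrane repair machinery, 1.15-fold, all with overlap. Without Riclin replicate 3 their log2 fold changes of 0.24, 0.22 and 0.19 were 0.15, 0.11 and 0.10. Trim16, a partner of galectin-3 in this response and named outside the rule, had a log2 fold change of 0.16.

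Interferon-stimulated genes stood on the same side as Lgals3bp. Of 30 tested genes of 32 listed 29 were higher, 22 had groups apart with Riclin higher, and 0 passed the adjusted threshold, with a median log2 fold change of 0.83, where 61.3% of all genes tested were higher and 8.14% had groups apart with Riclin higher. The summed level was 646, 682 and 547 FPKM in saline and 992, 1656 and 987 FPKM in Riclin, and none was at 0. Without Riclin replicate 3, 25 of 30 were higher and the median was 0.54. That library was the highest in this list and in every member except Lgals1 and Lgals4. Ifitm3, a membrane protein that blocks virus entry, measured 107, 121 and 121 FPKM in saline and 189, 200.2 and 242 FPKM in Riclin, with a log2 fold change of 0.84. Bst2, Irf7 and Ifi44 had log2 fold changes of 1.43, 1.40 and 1.38, each with groups apart. The part of the interferon response in the levels of Lgals3bp and Lgals9 was not tested.

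**Figure D5:**
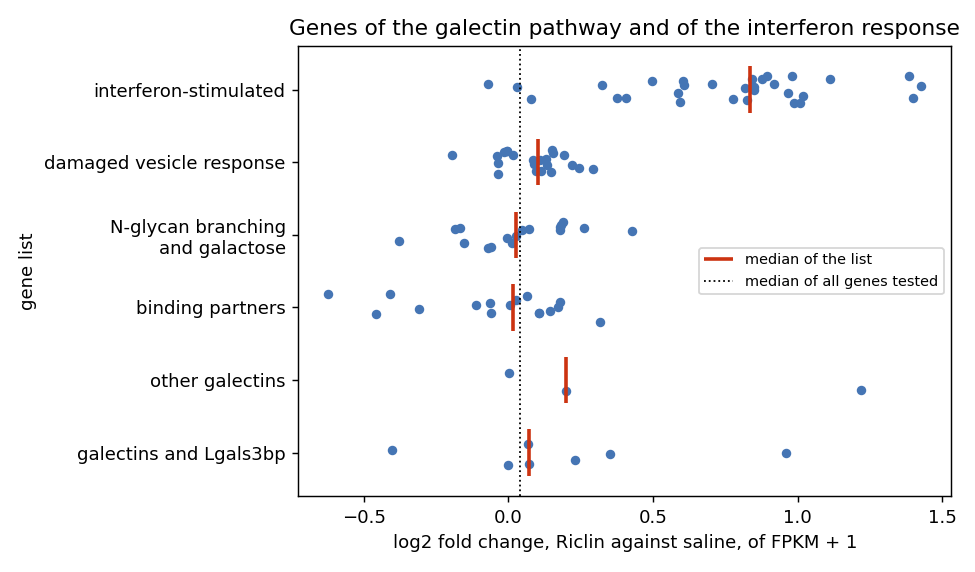
log2 fold change of FPKM + 1 between Riclin and saline for each tested gene (points, spread vertically at random) of 6 gene lists, with the list median in red and the median of all genes tested as a dotted line. The interferon list has its median at 0.83, and the medians of the binding partners (0.01), N-glycan enzymes (0.03) and damaged vesicle genes (0.10) lie near the dotted line at 0.04.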

How the data were processed

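The authors deposited 1 table of FPKM values for 6 mouse stomach libraries. Per the submitters' processing notes the build was mm10 and Bowtie2 was used. Which counting tool and annotation were used, and whether strand was, is not stated in the sources used here. Groups come from the treatment labels and replicate numbers from the titles. Exact ratios between libraries gave whole reads for 23546 of 23550 genes (relative tolerance 1e-09), and the same steps were tested on simulated data.

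Genes with at least 1 FPKM in at least 3 libraries (11738) were put on the scale log2(FPKM + 1), which understates changes of low genes, and Riclin was compared with saline by limma 3.58.1 (R 4.3.3), with an intensity trend, no covariate, two-sided tests and Benjamini-Hochberg adjustment over all genes. Figures used matplotlib 3.10.9. Gene positions are from GENCODE M21 and promoters from RefSeq (GRCm38.p6).

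The members and all gene lists were chosen with earlier results of these data known. Named are the members, the 3 genes with the closest centred log2 profile to each, the other galectin genes and the 4 genes of smallest p in each list. Predicted genes were left out of the closest profiles, and 1 gene that this rule chose is not reported here. The planned protein comparison was not made. The 16 alternatives changed the pseudocount to 0.1, the filter to none or to 5 FPKM, the scaling to upper-quartile or median-of-ratios and the prior to a robust one, or used the replicate block, each library left out, saline replicate 1 and Riclin replicate 3 both left out, pancreatic genes removed and the rest rescaled, and voom on recovered reads.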

Additional observations from a re-analysis of the deposited data

How the results depend on the processing

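Of 112 member values over the 16 alternatives, 104 kept their direction and 0 passed the adjusted threshold. Lgals3bp ranged from 0.85 to 1.04, Lgals9 from 0.19 to 0.49 and Lgals4 from -0.58 to -0.29. With 1 library left out, Lgals1 ranged from -0.16 to 0.21, Lgals2 from -0.039 to 0.42, Lgals3 from -0.38 to 0.53 and Lgals8 from -0.048 to 0.18, and the cause was not tested. Lgals3 was at -0.37 both with the replicate block and without saline replicate 1 and Riclin replicate 3, which compare the same 4 libraries. The median over the members was 0.07, and -0.01 to 0.30 with 1 library left out. Members with groups apart numbered 1, and 1 to 2 with 1 library left out, the second being Lgals9, Lgals4 or Lgals3. Over all genes tested, 1310 of 11738 had groups apart, and 2329 to 3125 with 1 library left out. Members with groups apart numbered 3 without saline replicate 1 and Riclin replicate 3 (Lgals3bp, Lgals4 and Lgals9), where fewer libraries part more easily (4430 of 11738 genes).

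Genes past the adjusted threshold by limma numbered 0. With a robust prior there were 2 (Clca1 and the predicted gene Gm52608), and with 1 library left out 0 to 1 (Cd79b, without saline replicate 2). Before adjustment 693 genes had a p under 0.05, of which 478 were higher in Riclin and 215 lower, and the split was 443 to 486 with median-of-ratios scaling. Such a p was seen for 1224 of 23550 genes without the filter and 376 of 6909 with the filter at 5 FPKM. Of all genes 61.3% were higher, and 49.8% with median-of-ratios scaling, under which Lgals12 turned direction while no member did. Replicate numbers 2 and 4 occur in both groups, but the labels name no shared animal or day. The correlation of deviations was 0.222 for number 2 and 0.011 for number 4, so the numbers do not establish pairs. The replicate block left 0 genes past the threshold and gave 0.92 for Lgals3bp.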
